A study of Caenorhabditis elegans with 2 samples.

Results

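The genes described here are the annotated Caenorhabditis elegans snoRNA genes that lie inside a protein-coding gene transcribed in the same direction. They were chosen from the Ensembl annotation of the WBcel235 genome (the assembly of ce11) as genes of the snoRNA class, other than those named smy-, lying wholly within the body of a protein-coding gene on the same strand. Of 344 snoRNA genes so named, 182 met this rule, in 155 host genes, and 162 had no same-strand host. The data are ChIP-seq of SNPC-4, in which DNA bound to a tagged protein is recovered and sequenced, from whole animals at the L2 larval stage. There was 1 group of 2 biological replicates of strain OP179, of mixed sex, which carries the unc-119(ed3) III mutation and the integrated transgene wgIs179, an eGFP-tagged snpc-4. No second genotype, stage or treatment was labelled, so the comparisons are among genes and carry no test. The transgene was not labelled with a promoter, and in whole animals binding in a few cells and weak binding in many cells cannot be told apart.

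SNPC-4 is the worm counterpart of the largest protein of SNAPc, a complex that switches on small nuclear RNA genes by binding a proximal sequence element upstream of them. snoRNAs guide the methylation (C/D class) or pseudouridylation (H/ACA class) of ribosomal and other RNAs, and in animals many are cut out of the introns of their host's transcript without a promoter of their own. In C. elegans some intronic snoRNA genes are known to carry upstream promoter elements, some resembling those of snRNA genes and some resembling the internal A and B boxes by which RNA polymerase III reads tRNA genes.

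The DNA just upstream of 6 of the 7 most strongly bound of these genes is shown first (that of Y37E3.20, the second strongest, is not printed), because these sequences are what the bound genes were compared by. The stretches are the 80 bases before the annotated snoRNA 5′ end, read 5′ to 3′ on the gene's strand from the RefSeq genome WBcel235. Capitals mark the 8-base word CGGAACCC with at most 1 mismatch, and the 6-base word TGTCGG. Both words come from the upstream windows of bound snRNA and SL RNA genes, with identical windows counted once. Of these 48 distinct windows 17 held CGGAACCC and 23 held TGTCGG. The choice of TGTCGG among the words of those windows was made after it had been seen only at bound hosted snoRNA genes. The words were searched on the gene's strand only, and they share the letters CGG. The positions are chrV:8500499-8500578 on the plus strand for ZK994.7, chrV:8228970-8229049 on the minus strand for C16D9.11, chrII:14018442-14018521 on the minus strand for F01D5.12, chrV:8349028-8349107 on the plus strand for C08D8.3, chrV:12491200-12491279 on the plus strand for W04D2.7 and chrII:11224102-11224181 on the plus strand for T06D8.11. In ZK994.7 the match to the 8-base word starts before the printed stretch and is not in capitals.

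ZK994.7: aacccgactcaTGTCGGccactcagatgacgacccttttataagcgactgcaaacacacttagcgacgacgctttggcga

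C16D9.11: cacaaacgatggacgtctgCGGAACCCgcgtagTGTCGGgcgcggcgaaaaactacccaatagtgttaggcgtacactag

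F01D5.12: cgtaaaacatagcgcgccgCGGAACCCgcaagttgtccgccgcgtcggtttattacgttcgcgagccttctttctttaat

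C08D8.3: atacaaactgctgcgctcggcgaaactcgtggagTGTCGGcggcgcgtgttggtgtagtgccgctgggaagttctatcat

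W04D2.7: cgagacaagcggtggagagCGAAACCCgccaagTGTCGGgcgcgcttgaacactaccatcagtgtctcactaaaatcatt

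T06D8.11: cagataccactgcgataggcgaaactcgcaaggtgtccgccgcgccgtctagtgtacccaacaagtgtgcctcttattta

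The word TGTCGG lies downstream of the 8-base word in C16D9.11 and W04D2.7, with 6 bases between them. C08D8.3 holds the 6-base word and no 8-base match, and T06D8.11, bound as strongly as W04D2.7, holds neither word, its nearest stretches differing by 2 bases from the 8-base word and by 1 base from the 6-base word.

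A second set of genes with weaker peaks held a match to the tRNA B box. The pattern searched was GGTTCGA, any 2 bases, then CC, with at most 1 mismatch, on the gene's strand, and capitals mark the match. These stretches run 80 bases upstream and 20 bases into the snoRNA gene, and lie at chrII:10840237-10840336 on the plus strand for M106.6, chrV:12303628-12303727 on the plus strand for C51F7.3, chrV:19643168-19643267 on the minus strand for Y43F8C.22 and chrIII:5602160-5602259 on the minus strand for C05D2.15. C05D2.15 is included as the strongest gene that missed the reproducible list.

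M106.6: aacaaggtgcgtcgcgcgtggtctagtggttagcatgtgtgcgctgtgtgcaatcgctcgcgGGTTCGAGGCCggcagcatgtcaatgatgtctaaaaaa

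C51F7.3: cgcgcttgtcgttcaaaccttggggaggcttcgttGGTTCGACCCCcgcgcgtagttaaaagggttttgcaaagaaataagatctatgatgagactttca

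Y43F8C.22: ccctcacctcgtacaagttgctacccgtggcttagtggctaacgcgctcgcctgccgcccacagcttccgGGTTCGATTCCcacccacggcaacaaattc

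C05D2.15: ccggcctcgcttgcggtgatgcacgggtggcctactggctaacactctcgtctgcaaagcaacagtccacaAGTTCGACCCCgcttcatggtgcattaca

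The host promoter case is shown by F54E7.10, in the first intron of the ribosomal protein gene rps-12, whose 80 upstream bases at chrIII:5679298-5679377 on the plus strand begin at the annotated host 5′ end and hold no match to the words or the B box. The summit lies upstream of the printed stretch, outside the host.

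F54E7.10: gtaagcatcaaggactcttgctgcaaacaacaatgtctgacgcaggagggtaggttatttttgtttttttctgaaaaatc

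The genes themselves can be recognised by their boxes, marked in capitals. C51F7.3 has TGATGA near its start and CTGA near its end, as C/D snoRNAs do, and C10C6.8 has ACA 3 bases before its end, as H/ACA snoRNAs do. They lie at chrV:12303708-12303783 on the plus strand for C51F7.3 and chrIV:11474059-11474191 on the minus strand for C10C6.8.

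C51F7.3: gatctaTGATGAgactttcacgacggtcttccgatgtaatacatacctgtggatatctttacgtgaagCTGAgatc

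C10C6.8: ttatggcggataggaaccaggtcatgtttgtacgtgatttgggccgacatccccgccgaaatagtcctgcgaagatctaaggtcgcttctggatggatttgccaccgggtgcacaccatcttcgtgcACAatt

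Binding was read from the authors' lists of peaks on ce11. A candidate is a peak whose summit, the position of its maximum, lay within 250 bp of the snoRNA gene. The reproducible list holds the 1864 peaks that passed the irreproducible discovery rate procedure (IDR), which are also the strongest peaks of the pooled list, with a signal of 28.0 or more. A gene with a summit from that list is called bound. The signal is the authors' value for the strength of a peak and is used only to compare peaks within a list. Read depth was not at hand, and intervals cover the counting of genes only.

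Of the 182 hosted snoRNA genes, 25 were bound (13.7%, exact 95% interval 9.09 to 19.6). Over all nuclear genes of any class the share was 4.33%, and over noncoding genes other than snoRNA and piRNA inside a same-strand coding gene it was 6.13%. Within the latter, 21 of 37 snRNA genes, 19 of 167 tRNA genes, 45 of 1109 unclassified ncRNA genes and 1 of 74 miRNA genes were bound. Of the 162 snoRNA genes without a same-strand host, 44 were bound (27.2%, 20.5 to 34.7), and these intervals of the hosted and unhosted shares do not overlap. With a window of 500 bp in place of 250 bp the counts were 33 hosted (18.1%, 12.8 to 24.5) and 47 unhosted genes (29.0%, 22.2 to 36.7), whose intervals overlap. A candidate of any strength in the pooled list lay at 61 hosted genes (33.5%, 26.7 to 40.9), a share near the 37.8% of all nuclear genes, and at 99 unhosted genes (61.1%, 53.1 to 68.7). The search took in the gene body and 250 bp on each side, so longer genes were searched over more bases. The shares over all nuclear genes, which are of every class and length, are thus not like for like with those of snoRNA genes. At 104 hosted genes no list, pooled or of a single replicate, had a candidate. The 25 genes shared 24 summits, because C51F7.3 and C51F7.4 lie beside each other in frm-7.

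Bound genes lay on every chromosome. Chromosome V held 11 of its 36 hosted genes bound, II held 4 of 35, IV 4 of 27, I 3 of 36, III 2 of 38 and X 1 of 10.

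**Figure D1:**
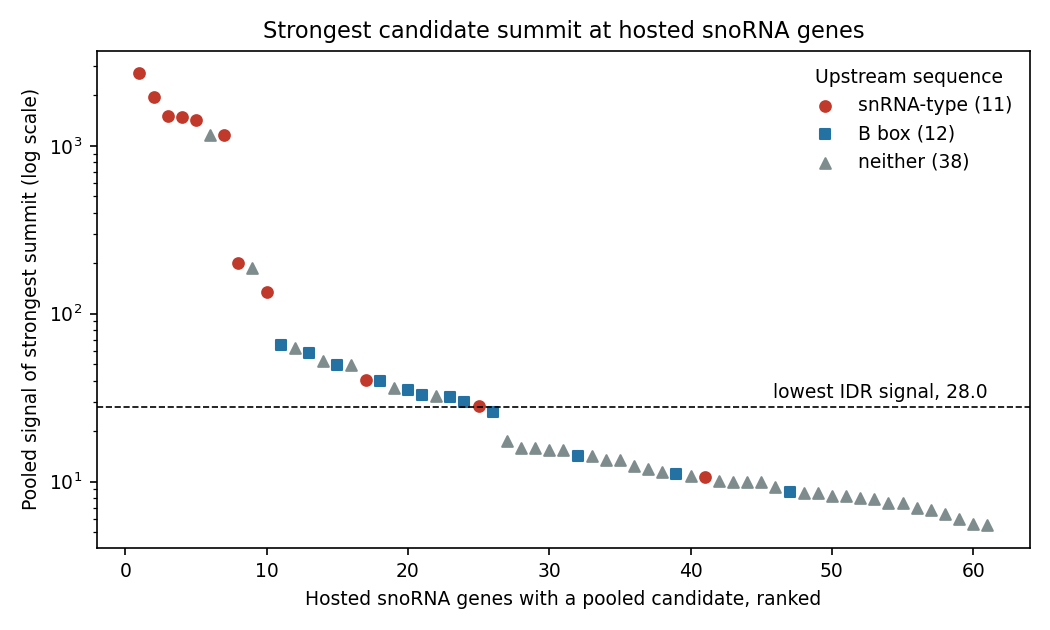
Pooled signal of the strongest candidate summit (log scale) at the 61 hosted snoRNA genes that have one, ranked from strongest to weakest, with marks by the upstream sequence as finally defined. The 7 strongest genes lie above 1000, 3 lie between 100 and 1000, and 15 more lie below 100 and above the dashed line at 28.0, the lowest signal of the reproducible list.

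The bound genes fell far apart in strength. The pooled signal ran from 28.3 to 2703 with a median of 57.97 (quartiles 36.1 and 1165), and 7 genes were above 1000, 3 between 100 and 1000, and 15 below 100. The unhosted bound genes had nearly the same median, 58.3, and a maximum of 3852.

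ZK994.7, in intron 17 of the peroxidasin gene pxn-1, had the highest signal, 2703 in the pooled list, 642 in replicate 1 and 2075 in replicate 2. Y37E3.20, in the phospholipid synthesis gene pcyt-2.1, followed with 1954 pooled, 478 and 1487. C16D9.11, in intron 27 of the receptor tyrosine kinase gene rol-3, had 1503 pooled, 334 and 1173. These 3 ranked 6, 10 and 17 among all 1864 peaks.

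F01D5.12 in F01D5.10 had 1488 pooled, 344 in replicate 1 and 1151 in replicate 2. C08D8.3 in C08D8.1 had 1433 pooled, 400 and 1046. T06D8.11 in plpr-1 had 1166 pooled, 264 and 907. All of them stood within the 25 strongest peaks of the whole list.

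W04D2.7, in the innexin (gap junction) gene inx-11, had 1165 pooled, 273 in replicate 1 and 898 in replicate 2, at rank 25. Across these 7 genes the lowest replicate 1 signal was 264, while the highest of the other bound genes in that replicate was 60.0, so the strong set stood apart in each replicate list. The 7 were short, 67 to 119 bp with a median of 77, against 68 to 235 bp with a median of 130.5 for the other 18.

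The next genes were weaker by several fold. T19C4.11, in the G protein alpha subunit gene gpa-1, had 199 pooled, 60.0 in replicate 1 and 141 in replicate 2. F54E7.10 in rps-12 had 188 pooled and 137 in replicate 2, with no candidate in replicate 1. F54F11.6, in the serpentine receptor gene sre-45, had 134 pooled, 29.4 and 104. F54E7.10 was the only bound gene without a candidate in both replicates.

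M106.6, in the condensin gene mix-1, had 65.0 pooled, 22.8 in replicate 1 and 38.3 in replicate 2. F39B2.14, in the ciliary transition zone gene tmem-107, had 62.7 pooled, 17.5 and 43.2. W08G11.6 in W08G11.3 had 57.97 pooled, 13.2 and 43.2. C02F5.15, which lies within fbxl-1 and a second host and is counted under the latter, had 52.4 pooled, 11.2 and 41.0.

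C51F7.3 and C51F7.4, in the FERM domain gene frm-7, shared a summit with 49.6 pooled, 21.9 in replicate 1 and 37.5 in replicate 2. The next 6 were Y73B6A.14, C10C6.8 in catp-8, C27H6.5 in unc-41, Y43F8C.22, R12E2.17 and D1046.6, from 40.3 pooled at the first to 32.5 at the last, with 5.88 to 11.3 in replicate 1 and 20.7 to 33.1 in replicate 2. The 3 weakest bound genes were C02C6.13 in lron-3 (28.3 pooled, 9.07 and 19.9), Y38F2AR.14 in Y38F2AR.12 (29.6, 7.91 and 20.2) and F55A11.10 in F55A11.6 (32.1, 11.5 and 19.7). Just outside the list stood C05D2.15 in madf-11, at pooled rank 2091, with 25.8 pooled, 3.26 in replicate 1 and 22.5 in replicate 2. The next hosted genes were well below it. C14C10.8 in ril-2, at rank 3556, had 17.4, 6.92 and 9.22. W06A7.12 in ret-1, a reticulon gene, at rank 4091, had 15.8, 2.95 and 12. Replicate 2 gave the higher signal at each of these genes, and whether the signal was scaled to depth was not stated in the sources used here.

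**Figure D2:**
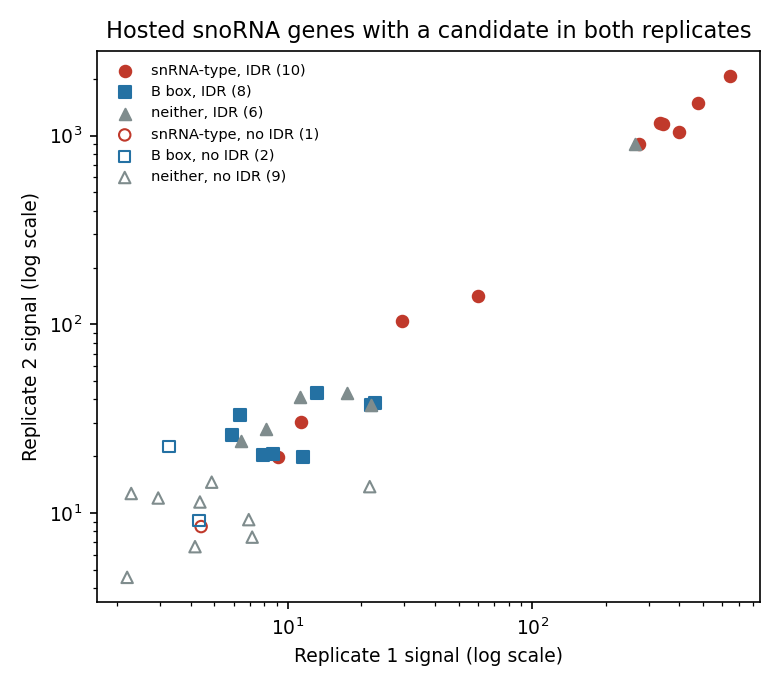
Replicate 1 against replicate 2 signal (both log scales) at the 36 hosted snoRNA genes with a candidate in both lists, 24 bound (filled) and 12 unbound (open). The 7 strongest genes form a separate group at the upper right, and the bound and unbound genes adjoin at the lower left.

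The replicates placed most summits close together. The summits of the 24 genes with a candidate in both lay 0 to 60 bp apart with a median of 13 bp, and those of the 7 strongest lay 0 to 3 bp apart. C02F5.15 had the widest gap, with its summit 210 bp upstream of the snoRNA in replicate 1 and 150 bp in replicate 2. Of the 25 bound genes 21 lay within the strongest 1864 peaks of replicate 1 and 21 within those of replicate 2. Of the 157 unbound genes 12 had a candidate in both replicates.

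**Figure D3:**
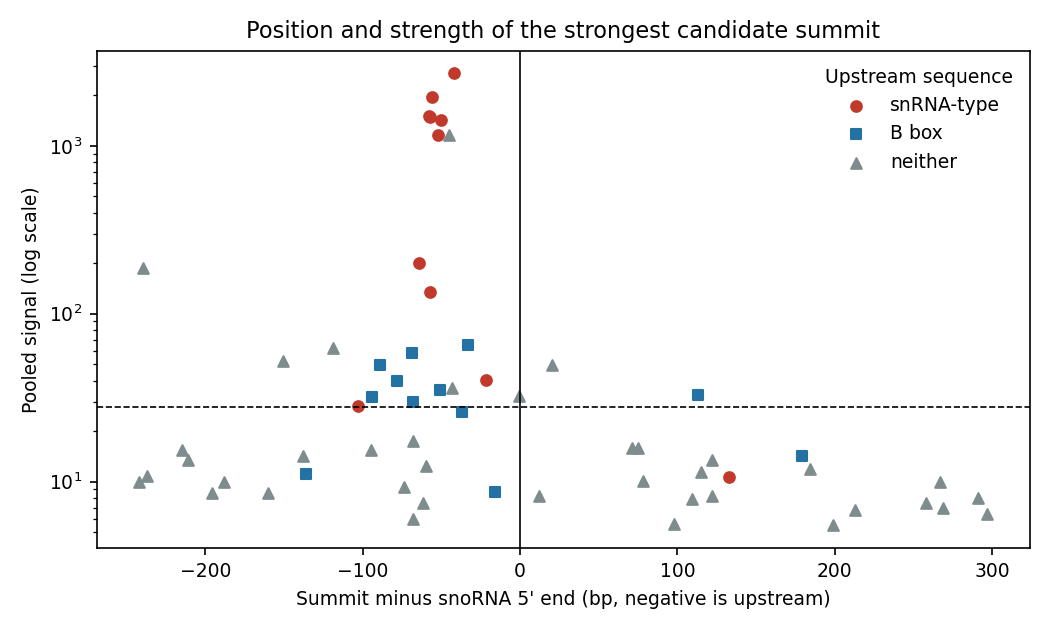
Pooled signal (log scale) against the position of the strongest candidate summit relative to the snoRNA 5′ end, in bp with negative values upstream, for the 61 hosted genes with a pooled candidate. The 7 strongest summits lie between -58 and -42, while the 36 candidates below the dashed line at 28.0 are spread from -242 to 297.

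Summits of bound genes lay mostly just upstream of the snoRNA. Their median position was -57 bp from the 5′ end (quartiles -78 and -43), 23 of 25 were upstream, and 14 lay 30 to 70 bp upstream. The 7 strongest were confined to -58 to -42 bp, whereas the other 18 ran from -240 to 113 bp. The unhosted bound genes had a median of -48.5 bp, with 40 of 44 upstream. The 36 hosted genes with a candidate and no reproducible summit had a median of 41.5 bp, with 17 of 36 upstream. The 2 downstream cases were C51F7.4, at 20 bp, whose summit is also 89 bp upstream of its neighbour C51F7.3, and R12E2.17 in the proteasome lid gene rpn-8, at 113 bp past the 5′ end of a gene 68 bp long.

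For 21 of the 25 the summit was nearer the snoRNA 5′ end than any annotated 5′ end of a host transcript, and 22 summits lay in a host intron. Of the 25 genes, 7 had a host transcript start within 500 bp of the snoRNA 5′ end, and all the exceptions were among these. At the rest, reading summits within 250 bp of the gene largely fixed beforehand that the summit was nearer the snoRNA. Those genes carry no weight in the count of 21. The 4 exceptions were F54E7.10, F39B2.14, C02F5.15 and F55A11.10, with summits 160 bp upstream, 58 bp upstream, 118 bp upstream and 30 bp downstream of a host transcript start. For C02F5.15 that start is of fbxl-1, which is not the host it is counted under. At 6 bound genes, these 4 with Y37E3.20 and D1046.6 (in cfim-2, a cleavage factor gene), the summit was also the strongest one within 500 bp of a host transcript start. At those genes a promoter of the host and a promoter of the snoRNA cannot be told apart by position. An unclassified ncRNA gene lay within 250 bp of the summit at 8 bound genes, among them Y37E3.20, F01D5.12, T06D8.11, W04D2.7 and T19C4.11, and its part in the signal was not tested.

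Hosts with several snoRNA genes had few bound ones. The 23 hosts with 2 or more held 50 genes, of which 3 were bound, against 22 of 132 genes that were alone in their host. Over noncoding genes other than snoRNA and piRNA inside a same-strand coding gene the bound share was 6.13%. No interval was computed for these counts, and the difference between them was not tested. In frm-7 both genes were bound, sharing 1 summit. In rps-12, F54E7.10 in intron 1 was bound, by a summit outside the host body, and F54E7.11 in intron 2 had no candidate in any list. In the other 21 hosts none of 46 genes was bound, including 4 in nol-56, which encodes a core protein of C/D snoRNPs, and 3 each in top-2 (DNA topoisomerase) and rpl-6.

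Several of these hosts had a reproducible summit at their own start. Within 500 bp of a transcript 5′ end, rpl-15 had a signal of 389, cdc-48.1 had 252, rps-12 had 188, eef-1G had 97.7, top-2 had 72.0, nol-56 had 57.8, Y37E3.8 had 52.6, rpl-7A had 51.8, ubl-1 had 43.5, rpl-6 had 42.5 and air-1 had 30.8. Over all 155 hosts, 37 (23.9%) had a promoter summit, against 1255 of 19973 nuclear protein-coding genes (6.28%). The share was 7 of 24 for hosts of bound genes and 30 of 131 for the others. At pcyt-2.1, rps-12, tmem-107, cfim-2 and F55A11.6 the promoter summit is the same one that made the snoRNA gene bound. Among hosts of bound genes only gpa-1 and rpn-8 had a different one. The share for hosts of bound genes was thus partly set by the bound call, and it cannot be compared with that of the others. Ribosomal protein genes held 19 of the snoRNA genes in 13 hosts. Of these hosts 10 had a promoter summit, and of the 19 snoRNA genes 1 was bound, F54E7.10. None of 5 snoRNA genes in 3 translation factor hosts was bound, and 24 of 158 in other hosts were.

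The genes for the proteins that snoRNAs work with were read in the same way, from a list of 8. Reproducible promoter summits lay at 5 of them, with signals of 80.6 at fib-1 (fibrillarin, the methyltransferase of C/D snoRNPs), 57.8 at nol-56, 29.9 at nol-58, 31.0 at snu-13 and 138 at Y48A6B.3, which was listed as nhp-2. Those summits lay at -101 bp from the gene's 5′ end at fib-1 and between -325 and -238 bp at the other genes with one. No such summit lay at the remaining listed genes, dkc-1 (the pseudouridine synthase), gar-1 and nola-3. The list is too short to compare the proteins of the C/D and H/ACA classes.

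**Figure D4:**
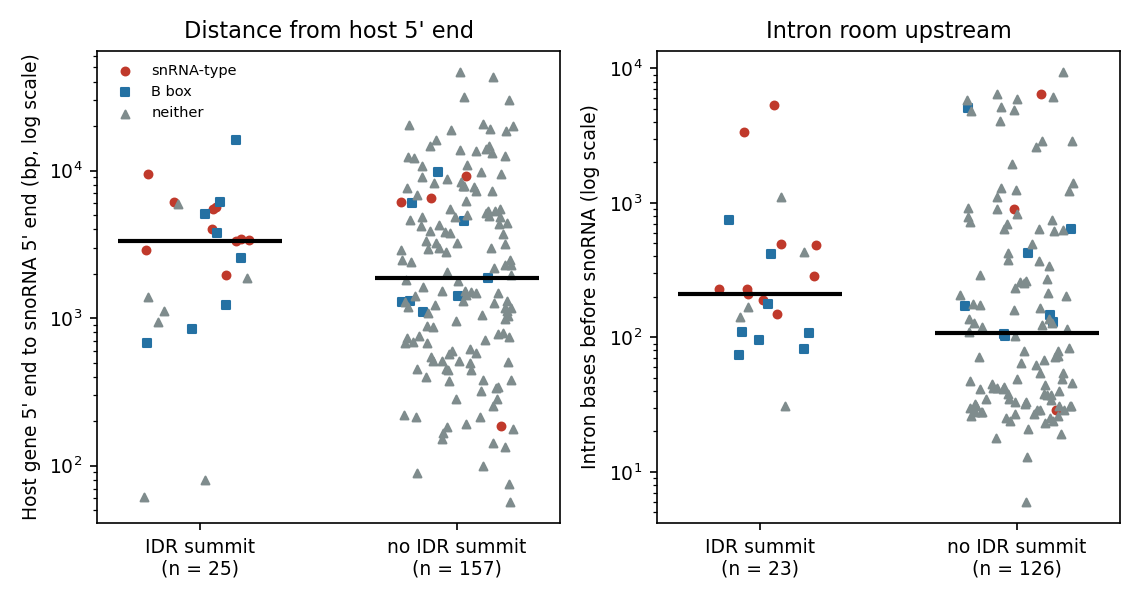
Distance from the host gene 5′ end to the snoRNA 5′ end (left) and intron bases between the exon and the snoRNA (right), both on log scales, for bound and unbound hosted genes, with a bar at each median. The medians are 3349 and 1861 bp on the left and 211 and 107.5 bases on the right, and the bound and unbound genes overlap over most of each range.

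Bound and unbound genes overlapped widely in where they lay in their hosts, and no order of the host distances held under every measure. The median distance from the host gene 5′ end was 3349 bp for bound genes (quartiles 1224 and 5462) and 1861 bp for unbound ones (674 and 6127). With a window of 500 bp the order turned, with medians of 1877 bp for bound and 2287 bp for unbound genes. Measured from the nearest host transcript start, signed so that a start downstream of the snoRNA is negative, the medians were 1196 and 1116 bp. As absolute distances they were 1224 bp for bound and 1305 bp for unbound genes, again in the other order. A median of 211 intron bases lay before the snoRNA at the 23 bound genes wholly inside an intron of a host transcript (quartiles 126 and 458), and 107.5 at 126 such unbound ones (35.0 and 629.75), of which 5 also overlap an exon of the host. At least 100 bases lay before 19 of 23 bound and 66 of 126 unbound genes. After the snoRNA the medians were 75 and 86.5 bases. The introns themselves had median lengths of 467 and 347.5 bp, and 3 bound and 33 unbound genes were in a first intron.

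Within the hosts, summits were read in introns with and without a snoRNA gene. Of 144 introns with one, 27 held a reproducible summit (18.8%), and of 1154 other introns 11 did (0.953%). The 27 are introns and not bound genes, of which 22 had their summit in a host intron, and the difference was not examined. Introns with a snoRNA gene were longer, 1957 against 595 bp on average. Per 100 kb of intron, 9.58 introns with a snoRNA gene and 1.601 others held a summit.

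The word CGGAACCC, taken from snRNA and SL RNA genes without use of any snoRNA gene, lay in the 100 bases upstream of 3 of 25 bound genes (C16D9.11, F01D5.12 and F54F11.6) and 1 of 157 unbound genes (T08H4.9), and in 0.138% of the same windows of all nuclear genes other than piRNA and snoRNA genes. With at most 1 mismatch it lay upstream of 8 bound genes (32%, 14.9 to 53.5) and 4 unbound ones (2.55%, 0.698 to 6.39), and these intervals do not overlap. Of the windows of those other genes 1.30% held it. In 8 bound genes the start of the match lay 59 to 83 bp upstream, with a median of 61 bp. Of the 4 unbound matches, those at T08H4.9 and Y65B4A.10 started 11 and 9 bp upstream. The positions of the other unbound matches, at B0379.12 and F28C6.11, are not given here, and whether position bears on binding was not tested. The word TGTCGG was chosen after it had been seen only at bound hosted genes, so its counts at them support nothing. This word lay upstream of 8 bound and 0 unbound genes, and of 1.15% of the gene windows. It started 46 to 69 bp upstream.

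The B box pattern, searched from 100 bases upstream to 20 bases past the 5′ end, lay at 8 bound and 8 unbound genes and in 0.453% of the gene windows. It was searched only within that window and on the gene's strand. For scale, 174 of 200 distinct nuclear tRNA gene sequences held it and 0 of the 48 snRNA and SL RNA windows did. It started 6 to 45 bp upstream of the snoRNA. In C51F7.3 the matching stretch lies inside the neighbouring snoRNA gene C51F7.4.

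Grouped by these sequences, 10 of 14 genes with an snRNA-type word were bound (71.4%, 41.9 to 91.6), as were 8 of 16 with a B box match (50.0%, 24.7 to 75.3) and 7 of 152 with neither (4.61%, 1.87 to 9.26). The strengths of the first 2 groups overlapped at the low end. The snRNA-type genes had signals from 28.3 to 2703 with a median of 1299, and 6 of the 7 genes above 1000 were among them, the other being T06D8.11. The B box genes had signals from 29.6 to 65.0 with a median of 37.4, and the genes with neither from 32.5 to 1166 with a median of 52.4. Of the 162 unhosted genes, 19 of 31 with only an snRNA-type word were bound, at a median signal of 689. Of those with only a B box match 4 of 16 were, at 45.8. Unhosted genes with both, none of them bound, are left out of these counts. With them, a B box match lay at 4 of 44 bound unhosted genes (9.09%, 2.53 to 21.7). It lay at 14 of 118 unbound ones (11.9%, 6.64 to 19.1), and these intervals overlap. The remaining bound unhosted genes held neither sequence.

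These groups were fitted in part to the bound genes and support nothing by themselves. The B box was searched after the upstream sequences of bound genes had been read, its window was then extended past the 5′ end because some matches of bound genes crossed it, and the second snRNA word was first ACACAC. That word was replaced by TGTCGG, through a looser rule on overlap with CGGAACCC (a shared run of 4 in place of 3 bases), after TGTCGG had been seen only at bound genes. With the first definitions of both, 8 of 17 genes with an snRNA-type word, 4 of 10 with a B box, 2 of 2 with both and 11 of 153 with neither were bound. With an exact B box the counts were 3 of 4 and, for neither, 12 of 164.

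**Figure D5:**
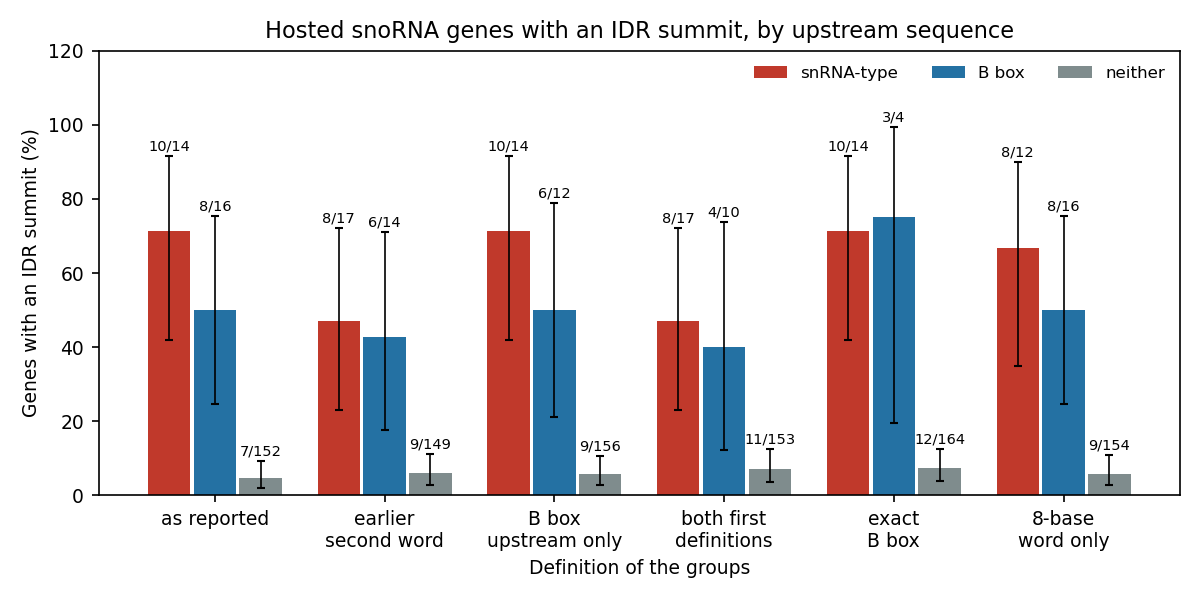
Percentage of hosted snoRNA genes with a reproducible summit, by upstream sequence, under the 6 definitions of the groups that were tried, with exact 95% intervals and counts above the bars. Genes with an snRNA-type word range from 47.1% to 71.4% and genes with neither from 4.61% to 7.32%, and 2 genes with both sequences under the earlier second word are not drawn.

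By the boxes of the gene itself, 3 of 6 C/D-like, 8 of 65 H/ACA-like and 14 of 111 unclassified genes were bound. The rule was strict and left all 7 genes above 1000 and most others unclassified, so these counts say little about the 2 classes. Of the 65 H/ACA-like genes 9 also have CTGA in their last 15 bases, M106.6 among them. The 3 bound C/D-like genes, C51F7.3, R12E2.17 and F55A11.10, all had a B box match and signals from 32.1 to 49.6. No hosted snoRNA gene had an identical copy among the annotated snoRNA genes.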

How the data were processed

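Peak lists on ce11 were used, 1 for each of the 2 replicates, 1 for the pooled reads and 1 that passed IDR. Per the deposited description files, the authors called peaks against a control alignment, and the labels give library fragments of 150 to 350 bp. The sources used here give no aligner, peak caller, version or read depth. Each peak's signal value is the authors' deposited strength, with scaling not stated. The replicate 1 list holds 21391 peaks and the replicate 2 and pooled lists 30000 each. The ce10 lists were not used.

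Gene positions were from Ensembl release 115 and sequences from the RefSeq genome of the same assembly. RefSeq symbols matched 182 of the hosted genes, and 181 had the same coordinates. For each gene the strongest summit (start plus column 10) within 250 bp was read. Shares carry exact Clopper-Pearson 95% intervals. With 1 group no test between samples was possible, and genes were not treated as replicates. Matching of summits to genes was tested on simulated data.

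Members, lists and words were chosen with earlier results of these data known. Named bound genes were the 15 strongest, the 3 weakest, those with a downstream summit and those sharing a host with an unbound gene. Named unbound genes were the 3 strongest candidates and those sharing a host with a bound gene, and every host of 2 or more genes with a summit was to be named. Genes named for a word, a host class or an exception were added after their values were seen. Alternatives were other windows, a stricter list of 932 peaks, each replicate alone, other host definitions and other words. Python 3.11.15, pandas 2.3.3, numpy 2.4.6, scipy 1.17.1 and matplotlib 3.10.9 were used.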

Additional observations from a re-analysis of the deposited data

How the results depend on the processing

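No median position or host distance changed sign, and the other results could not. Of the 140 alternatives 114 were labelled close to the reported value, but many could not move a result. Leaving out identical copies removed no gene, and the nearest host transcript start bore only on host distances. The band for counts was wide. With the 500 bp window 33 bound genes against 25 counted as close, as did 83 pooled candidates against 61. The order of the bound and unbound host distances turned with that window. The 932 strongest peaks alone gave 16 bound hosted genes, 15 with a candidate in both replicates and 13 nearer the snoRNA than the host, with a median signal of 193.7 and a median rank of 110.5. The median summit position was -52 bp with a window of 100 bp, -64 bp with 500 bp and -52 bp without the 4 summits nearer a host start, a choice made after seeing the data. Each replicate was left out in turn, with bound genes called from the one kept. This gave 22 to 25 bound hosted genes and median positions of -54 to -49 bp. Median host distances were 2713.5 to 3349 bp for bound and 1861 to 2015 bp for unbound genes. Signals and ranks in these settings were still read from the pooled list, which holds both replicates. Median signals of 57.97 to 63.9 and median ranks of 461 to 558 thus do not show the strength without a replicate. Hosted genes with a candidate numbered 58 without replicate 1 and 52 without replicate 2, against 61 in the pooled list. The values furthest from the report came without replicate 1, except the position and the candidate count, which came without replicate 2. The median distance from the host 5′ end for bound genes was 1877 bp with the 500 bp window, 2713.5 bp with the stricter list and 1196 bp from the nearest transcript start. For unbound genes it was 2287, 2015 and 1116 bp in the same order, 1312 bp for genes in introns alone and 2790 bp without ribosomal protein hosts. The upstream word was at 6 bound and 3 unbound genes as its 6-base form ACCCGC, at 8 and 4 with 1 mismatch, and at 0 unbound genes among those in introns. The causes of these shifts were not tested beyond the genes each setting adds or removes. With 1 replicate the count found in both has no value. No paired analysis was possible because there is 1 group. Depth was not known, so it is not known whether genes without a candidate lacked binding or reads.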
